A study of Mus musculus with 4 samples.

Results

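The genes described here encode the motors that move cargo along microtubules and actin. They were taken from a list of C-to-U sites of mouse cortex by gene symbol: Kif or Myo followed by a digit, or a symbol starting with Klc, Dync, Dynl, Dctn, Myh or Myl. The rule found 373 of the 28412 listed sites, in 39 of the 4206 listed gene symbols. It also takes in a few symbols that are no motor subunit, and of these only Mylk, the myosin light chain kinase, had sites, which numbered 6.

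The list came from scDART-seq, in which the cytidine deaminase APOBEC1 is joined to a YTH domain that binds N6-methyladenosine (m6A), so that a cytosine close to m6A is read as a T. Cortex was dissociated with papain and the cells were barcoded by split-pool steps with a Parse kit. Tamoxifen was first given at 6 to 8 weeks of age, at 20 mg/kg every 24 h for 5 days, and the cortex was collected 7 days after the last dose. The 4 samples were sublibraries of a single pool, which mixed cells carrying APOBEC1-YTH with cells carrying APOBEC1-YTHmut, the same fusion with a mutated YTH domain, and the labels name replicates 1 and 2 within that pool.

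Sites in the list are not tied to a sublibrary, genotype or kind of cell, so there were no replicates, no error between samples and no test. The promoter that drives the fusions is not named in the labels. Intervals below are 95% Wilson intervals, which cover counting error only, and sites of the same gene are not independent. Each site carries a whole number, called the site count here. What it counts is not stated in the labels or the series text. It was at least 3 at every site. The list holds neither read depth nor expression: a gene with few methylated transcripts and a gene with few reads cannot be told apart, and the tissue label was not checked against marker genes. Sorted neuronal nuclei, mentioned in the series text, were not analysed here.

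Kinesins mostly walk towards the plus ends of microtubules, which point down the axon, and carry synaptic vesicle precursors, mitochondria and other cargo away from the cell body. Cytoplasmic dynein, activated by the dynactin complex, walks the other way. Myosins pull on actin, and in neurons they move organelles in spines and shape the cell cortex. m6A is a reversible mark of mRNA that is written mostly in the DRACH context and is known for its enrichment near stop codons and in long exons.

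Sequences are given for the site with the highest count in each of the 8 genes whose highest count was greatest. They show how varied the contexts of the strongest sites were. Each is 21 nt of the annotated GENCODE M21 transcript (mm10 coordinates), 5′ to 3′ on the gene's strand in DNA letters, and the capitals mark 5 nt of context in which the edited C is the fourth letter.
Kif1a, minus strand, chr1:93068531-93068551, coding: aagaagaAGACAgatttcatc
Myo5a, plus strand, chr9:75184343-75184363, coding: agagctgGAACAggagaagca
Kif1b, minus strand, chr4:149263661-149263681, coding: aagaagaAAACTgattttatt
Kif5c, plus strand, chr2:49774708-49774728, 3' UTR: ctctggcAGACTgcatgttgt
Dctn1, plus strand, chr6:83190038-83190058, coding: actgaagGAACGggtagacga
Klc1, plus strand, chr12:111794768-111794788, 3' UTR: gacacacTGACGtagatttgc
Myh10, plus strand, chr11:68815273-68815293, 3' UTR: ctccacaAGACAtgcgtatta
Dync1h1, plus strand, chr12:110656481-110656596, coding and joined across an exon junction: agcaagcCAACAtccagttcc

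All 8 edited cytosines follow AA or GA, the RAC context in which m6A is read by this method. No motor site with a count above 3 lay outside RAC, so sites picked by their count could not show otherwise. The site counts, in the same order, were 290, 95, 62, 51, 45, 40, 40 and 38. Kif1a therefore held the strongest site, and the Kif1a and Kif1b windows differ by few letters, which is taken up with that gene pair.

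Of 121 annotated protein-coding genes that match the rule, 39 had at least 1 site, which is 32.2% (24.6 to 41.0%), against 17.5% of all 22028 annotated protein-coding genes. Of the 39 listed genes, 10 had 10 or more sites, or 25.6% (14.6 to 41.1%), against 16.9% of all listed symbols, and the interval holds that value. A site count of 4 or more was reached at 224 of the 373 sites, or 60.1% (55.0 to 64.9%), against 59% of all listed sites. The motor genes thus were listed more often than protein-coding genes in general, while the share of their sites at 4 or more was close to that of the list. The median was 5 sites per motor gene and 2 per listed symbol, and 8 motor genes had a single site.

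**Figure D1:**
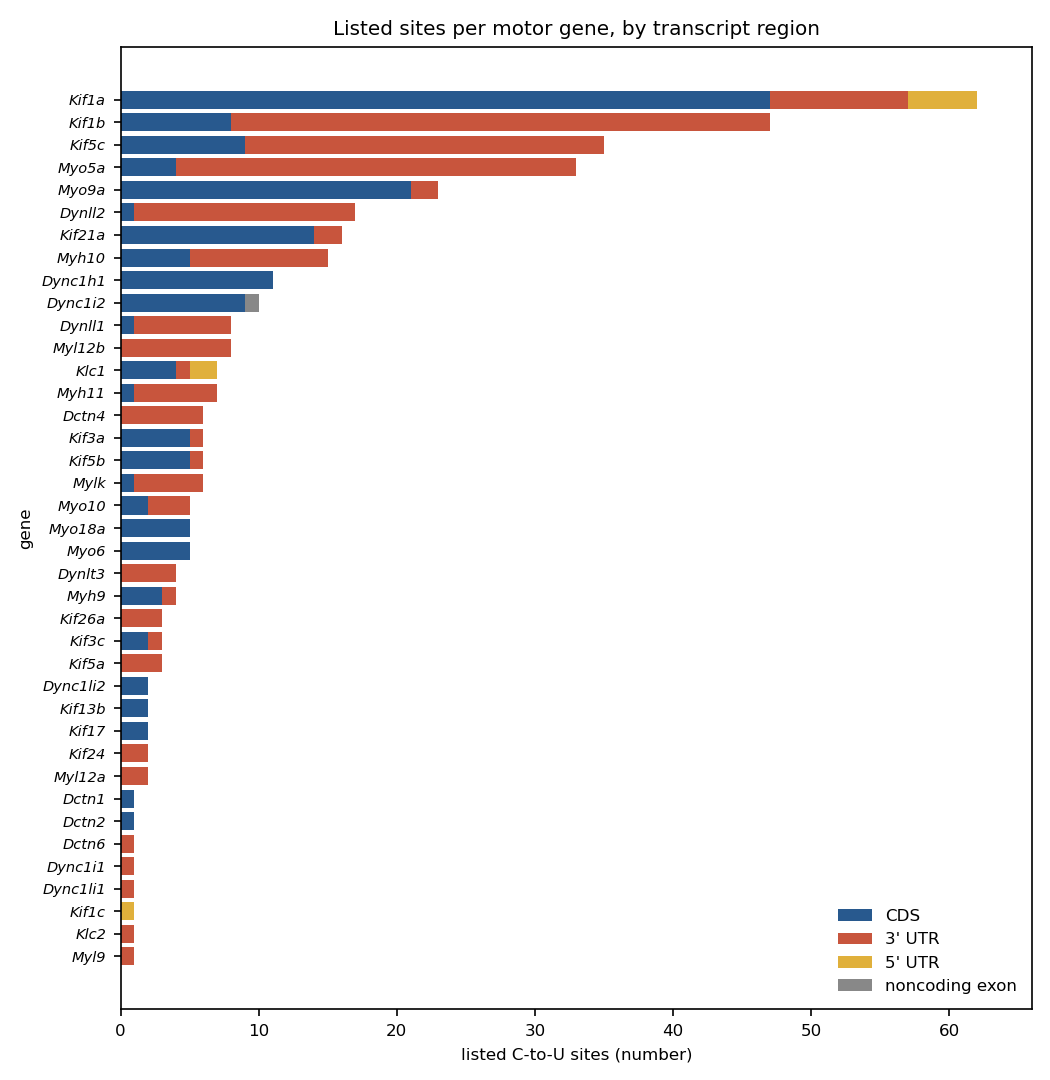
Number of listed C-to-U sites (horizontal axis) in each of the 39 motor genes (vertical axis), coloured by transcript region. Kif1a, Kif1b, Kif5c and Myo5a have from 33 to 62 sites each, Kif1a mostly in the CDS and the other 3 mostly in the 3' UTR.

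By number, the sites were concentrated in a few transport motors. Kif1a, which carries synaptic vesicle precursors and dense core vesicles, had 62 sites and ranked 45 among all listed symbols. Kif1b, which carries mitochondria and vesicle precursors, had 47 sites, and Kif5c, a neuronal kinesin-1 heavy chain, had 35. Myo5a, which carries organelles on actin and whose loss gives the dilute coat colour, had 33. These 4 genes held 177 of the 373 sites, or 47.5%, and the 10 genes with 10 or more sites held 72.1%. In the whole list, symbols with 10 or more sites held 67.1% of the sites. Long transcripts offer more cytosines, so site numbers do not rank genes by density. Of the RAC cytosines on the longest coding transcript, 16.7% were listed in Kif1a, 12.4% in Kif1b, 13.6% in Kif5c and 8.25% in Myo5a. The short Dynll2, with 17 sites, had 23.2% listed, more than any of these 4.

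Among kinesins, 13 of 39 annotated Kif genes had a site, and the numbers differed by role. The groups here and below are small, and 17.5% of all protein-coding genes had a site. All 3 kinesin-1 heavy chains were listed: Kif5c with 35 sites, Kif5b, the form made in most cells, with 6, and Kif5a, a neuronal form, with 3. Kinesin-3, the family of fast vesicle motors, had 4 of 7 genes listed with 112 sites, nearly all in Kif1a and Kif1b, while Kif13b had 2 and Kif1c had 1. In kinesin-2, a family that works in cilia and in neuronal transport, Kif3a had 6 sites, Kif3c 3 and Kif17 2, and Kif3b had none. Kif21a, a kinesin-4 that slows microtubule growth, had 16 sites and was the only listed gene of 5 in its family. The 8 kinesins grouped as mitotic, which include Kif11 and Kif23, had no listed site, but 8 genes are too few to set this apart from 17.5%. Of the kinesin-13 group, which holds microtubule depolymerases, only Kif24 was listed, with 2 sites, and Kif26a, an atypical kinesin, had 3. The light chains that link kinesin-1 to cargo were represented by Klc1 with 7 sites and Klc2 with 1.

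In the dynein system all 5 listed Dync genes, of 7 annotated, encode subunits of cytoplasmic dynein 1. Dync1h1, the heavy chain with the motor domain, had 11 sites with counts from 3 to 38. Dync1i2, an intermediate chain that binds dynactin, had 10 with counts from 3 to 18. Dync1i1, Dync1li1 and Dync1li2 had 1 or 2 sites each, while Dync2h1 and Dync2li1, of the ciliary dynein 2, had none. Of the 9 light chain genes, which are small dimers shared with other complexes, Dynll2 had 17 sites, Dynll1 8 and Dynlt3 4, and the other 6, of the Dynlrb and Dynlt1 groups, had none. Dynactin had 4 of 6 genes listed, with 6 sites in Dctn4, a subunit of its pointed end, and 1 site each in Dctn1, Dctn2 and Dctn6. The single site in Dctn1, whose product p150Glued binds microtubules and dynein, had a count of 45, while the single site in Dctn2, dynamitin, had a count of 3.

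Among myosins, 5 of 25 unconventional and 3 of 14 conventional heavy chain genes were listed, or 20.0% and 21.4%, near the 17.5% of all protein-coding genes. Myo5a had 33 sites and Myo9a, an unconventional myosin of class IX, had 23. Myo6, which walks towards the minus end of actin, Myo10, a motor of filopodia, and Myo18a each had 5. The listed conventional heavy chains were the nonmuscle Myh10 with 15 sites, the smooth muscle Myh11 with 7 and the nonmuscle Myh9 with 4, and the other 11, which include the sarcomeric genes and the nonmuscle Myh14, had none. Of 12 myosin light chain genes, Myl12b had 8 sites, Myl12a 2 and Myl9 1, all in the 3' UTR, and all 3 encode regulatory light chains.

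By region, the motor genes held more coding sites than the list as a whole. In the CDS lay 171 of 373 sites, or 45.8% (40.9 to 50.9%), against 26.1% of all sites. The 3' UTR held 193, or 51.7% (46.7 to 56.8%), against 61.9%. The 5' UTR held 8 sites, a noncoding exon held 1 and introns held none. Kif1a alone gave 47 of the coding sites, and without it the CDS share was 39.9%, still above the share of all sites. The 3' UTR share without Kif1a was 58.8% (53.3 to 64.2%), an interval that holds the 61.9% of all sites. On the longest coding transcript alone, which leaves out sites in noncoding genes, the CDS share was 47.0%, against 33.6% of all sites so placed. There, 51.9% (46.8 to 57.0%) of the motor sites lay in the last exon, against 70.4% of all sites. A stop codon was at most 400 nt away for 24.2% (20.1 to 28.8%), against 30.4%.

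Some groups lay at the extremes of this line, and the largest families did not. Kif genes had 94 sites in the CDS and 88 in the 3' UTR, and Myo genes had 37 and 34. The values were 9 and 17 for Myh, 4 and 2 for Klc, and 2 and 7 for dynactin. Kif1a had 47 and 10, while Kif1b had 8 and 39. The heavy, intermediate and light intermediate dynein chains had 22 of 25 sites in the CDS, and Kif21a had 14 of 16. Dynein light chains had 27 of 29 in the 3' UTR, and genes with Myl symbols had 16 of 17 there, 5 of them in Mylk. The dynein light chains Dynll1 and Dynll2 have 89 codons each, and Dync1h1 has 4644 codons with a 3' UTR of 254 nt.

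Much of what the motor mRNAs offer to the method is coding sequence. On the longest coding transcripts, 69.9% of the RAC cytosines (a C preceded by AA or GA on the transcript strand) of the 39 genes lay in the CDS, against 52.4% in the 3856 listed coding genes as a whole. Of the coding RAC cytosines offered by the motor genes, 3.15% were listed, against 2.41% for the listed coding genes. Without Kif1a the motor value was 2.43%. Of the RAC cytosines in the 3' UTR, 8.39% were listed in motor genes, 8.42% without Kif1a, and 5.47% in the listed coding genes. So per cytosine offered the motor genes were listed more often in the 3' UTR than in the CDS, and without Kif1a their coding rate was close to that of the list. Read depth along the transcripts was not known.

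**Figure D2:**
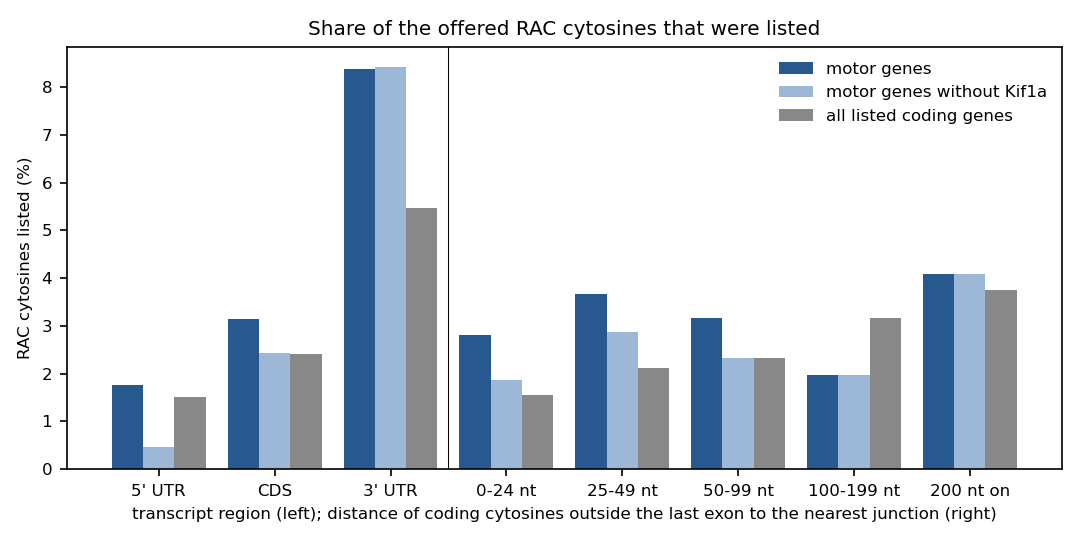
Percent of RAC cytosines on the longest coding transcripts that were listed (vertical axis), by region at left and, for coding cytosines outside the last exon, by distance to the nearest exon junction at right. Bars are the motor genes, the motor genes without Kif1a, and all listed coding genes; without Kif1a the coding bar falls from 3.15% to 2.43%, beside 2.41% for all listed coding genes.

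Coding sites of motor genes lay close to exon junctions, and so did the coding RAC cytosines that these genes offer. The genes offered 4328 of these outside the last exon, 1425 within 24 nt of a junction and 1282 from 25 to 49 nt. Of the 139 listed among them, 40 and 47 lay at those distances, a similar part. Outside the last exon, 105 of 170 coding sites were within 50 nt of a junction, or 61.8%, against 44.4% of all such sites. Without Kif1a the share was 57.7%. Per cytosine offered, motor genes were listed at 2.81% of coding RAC cytosines within 24 nt of a junction, at 3.67% from 25 to 49 nt and at 3.16% from 50 to 99 nt. Without Kif1a these values were 1.87%, 2.87% and 2.32%. In the listed coding genes they were 1.55%, 2.11% and 2.33%, and rose to 3.16% from 100 nt to under 200 nt and to 3.75% farther away. The motor genes had 1.97% and 4.09% in the same bins, on 4 and 14 listed cytosines. The site of Kif1a with a count of 93 lay 2 nt from a junction, and the strongest site of Dync1h1 lay 6 nt from one.

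The base after the C went with the share that was listed. Of coding RAC cytosines followed by G, 7.80% were listed in motor genes, against 2.34% of those followed by another base. The listed coding genes had 5.46% and 1.96%. In the 3' UTR the motor values were 11.9%, on 13 listed cytosines, and 8.15%, beside 8.09% and 5.30% in the listed coding genes. The most frequent contexts at motor sites were AAACA with 33 sites, AAACT with 22 and GAACG with 20. GAACG made up 6.78% of RAC sites in motor genes and 3.24% in all genes. Strong coding sites of Kif1a, Kif1b, Dctn1, Kif21a and Myo9a were among its 20 sites, but many of the others were weak. The median count of GAACG sites in motor genes was 6, against 11 for AAACA and 6.5 for AAACT. DRACH (A, G or T, then A or G, then AC, then A, C or T) does not allow G after the C. It covered 49.6% (44.6 to 54.7%) of all motor sites, against 55.2% of all sites in the list. It covered 62.7% (57.1 to 68.0%) of the RAC sites of motor genes, against 71.0% of all RAC sites. In the CDS it covered 42.9% of the motor RAC sites and in the 3' UTR 81.9%, against 55.7% and 77.0% of all RAC sites.

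RAC itself held at 295 of 373 motor sites, or 79.1% (74.7 to 82.9%), against 77.8% of all sites. The other 78 sites all had the lowest count, 3. Of these, 53 lay within 10 nt of a RAC site of the same gene.

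**Figure D3:**
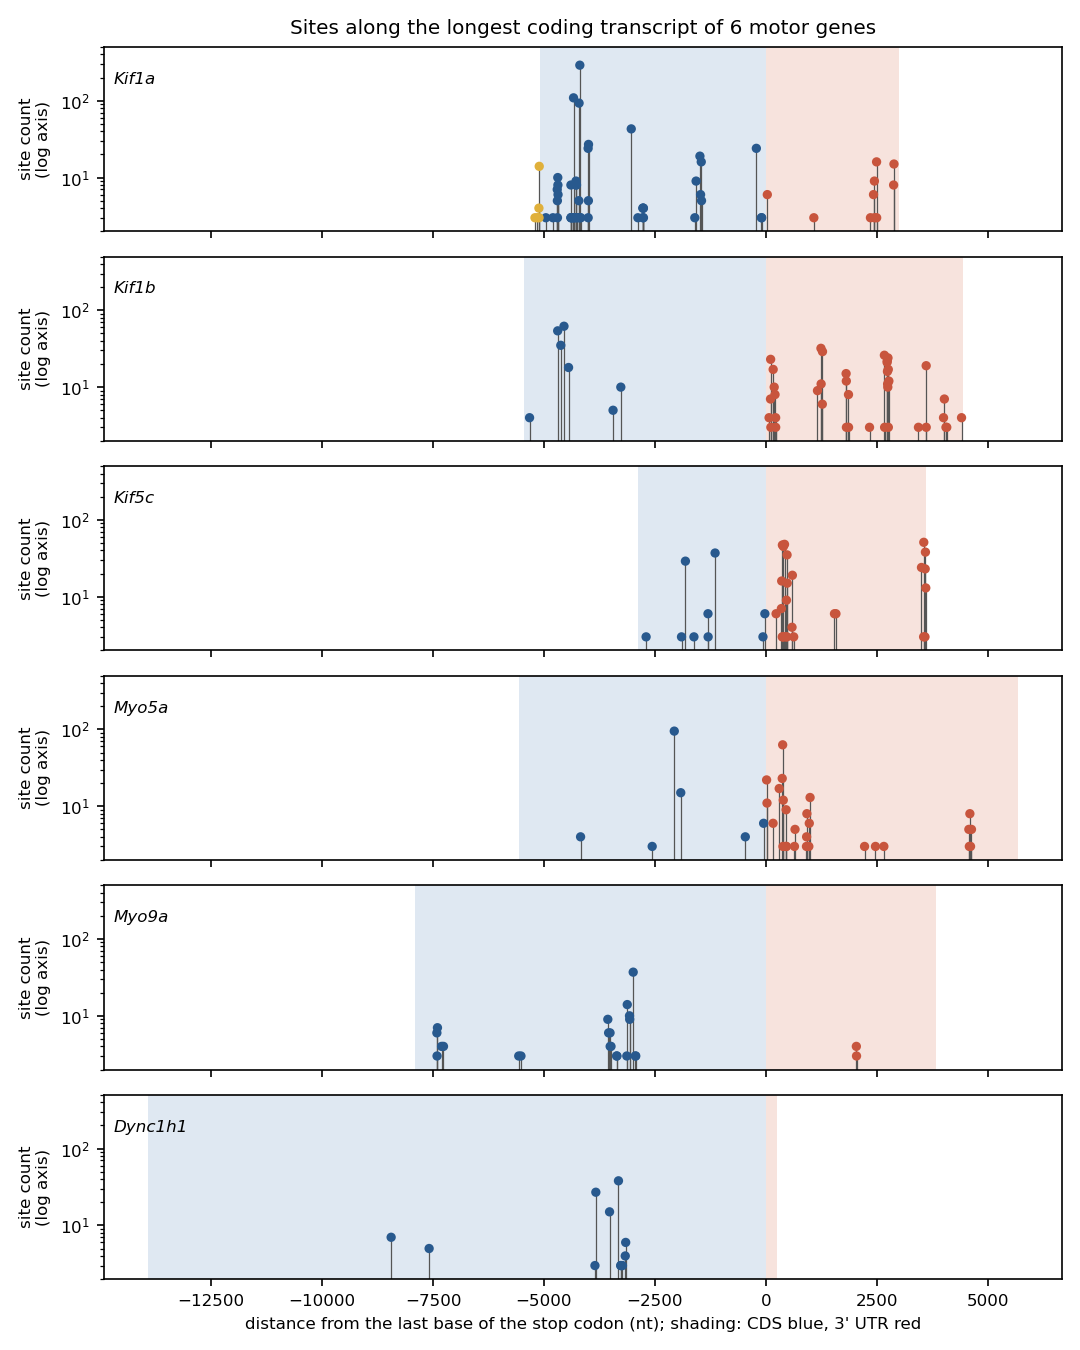
Site count on a log axis against distance from the last base of the stop codon, along the longest coding transcript of 6 motor genes; points are sites (CDS blue, 3' UTR red, 5' UTR yellow) and shading marks the CDS and the 3' UTR. Dync1h1 has its sites in a few stretches of the CDS, as has Myo9a apart from 2 sites in the 3' UTR, and Kif5c, Kif1b and Myo5a have dense groups in the 3' UTR.

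Many sites sat in short stretches of their transcripts. Runs of at least 4 sites with gaps of at most 50 nt held 154 of the 373 sites, in 29 runs of 11 genes. The share of all listed sites in such runs was not computed, so the runs cannot be called particular to motor genes. They also count sites outside RAC with a count of 3, many of them next to a RAC site. Merging sites within 10 nt left 265 of the 373. The largest, in the 3' UTR of Kif5c, had 13 sites within 133 nt, from 351 to 483 nt after the stop codon, with counts from 3 to 48. A second Kif5c run of 7 sites lay near the end of the 3' UTR, from 3509 to 3606 nt after the stop, and held the gene's strongest site with a count of 51. Myl12b had all 8 of its sites in 79 nt, from 211 to 289 nt after the stop, with counts from 3 to 37. Myh10 had 6 sites from 153 to 225 nt after the stop, its strongest with a count of 40, and 4 more from 283 to 312 nt.

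The 3' UTR of Kif1b held a run with regular spacing, shown because every listed C stands at the same place in a repeat. The capitals in this 27 nt window mark the 6 listed cytosines.
Kif1b, minus strand, chr4:149178012-149178038, 3' UTR: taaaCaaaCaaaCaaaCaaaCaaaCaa
The 6 sites, 4 nt apart, lay from 2734 to 2754 nt after the stop codon and had counts from 10 to 24. Each is an AAACA context, and this run gave 6 of the 33 AAACA sites of the motor genes.

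In coding sequence, several genes had most of their sites in part of the CDS, and others did not. Kif5c had 1, 2, 3, 1 and 2 coding sites in 5 equal parts, and Myh10 had 1 in each. Kif1a had 27 of its 47 coding sites in the first 340 of 1697 codons, a stretch that encodes most of the motor domain. Of 52 RAC cytosines there 20 were listed, or 38.5%, while the later parts of equal length had from 8.57% to 17.6%. Dync1h1 had 9 of its 11 coding sites between codons 3362 and 3593 of 4644, with counts of 3, 27, 15, 38, 3, 3, 3, 4 and 6 in that order. Dync1i2 had all 9 of its coding sites between codons 2 and 189 of 612, with counts from 3 to 16. Its strongest site, with a count of 18, lay in a noncoding exon of another transcript. Myo9a had 14 of 21 coding sites in the third and the fourth of 5 equal parts, with a highest count of 37 there. The Kif21a sites were mostly weak, since 11 of 16 had a count of 3, and the highest, 27, was at codon 500.

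Counts above 100 were rare. Only 2 of 373 motor sites reached 100, both in the CDS of Kif1a, at codon 301 with 290 and at codon 254 with 109. Of all 28412 listed sites 565 reached 100, among them 24 of 7400 in the CDS and 327 of 17599 in the 3' UTR. No motor site in the 3' UTR, of 193, reached it. Kif1a also had a count of 93 at codon 295, in the same exon as the strongest site, so that exon 11 of 48 held the first and the third of its sites by count. The next in Kif1a was 43 at codon 687. The highest count in a motor 3' UTR was 63, in Myo5a at 380 nt after the stop codon, and its coding site at codon 1167 had 95. The median count was 4 in the CDS and 5 in the 3' UTR.

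**Figure D4:**
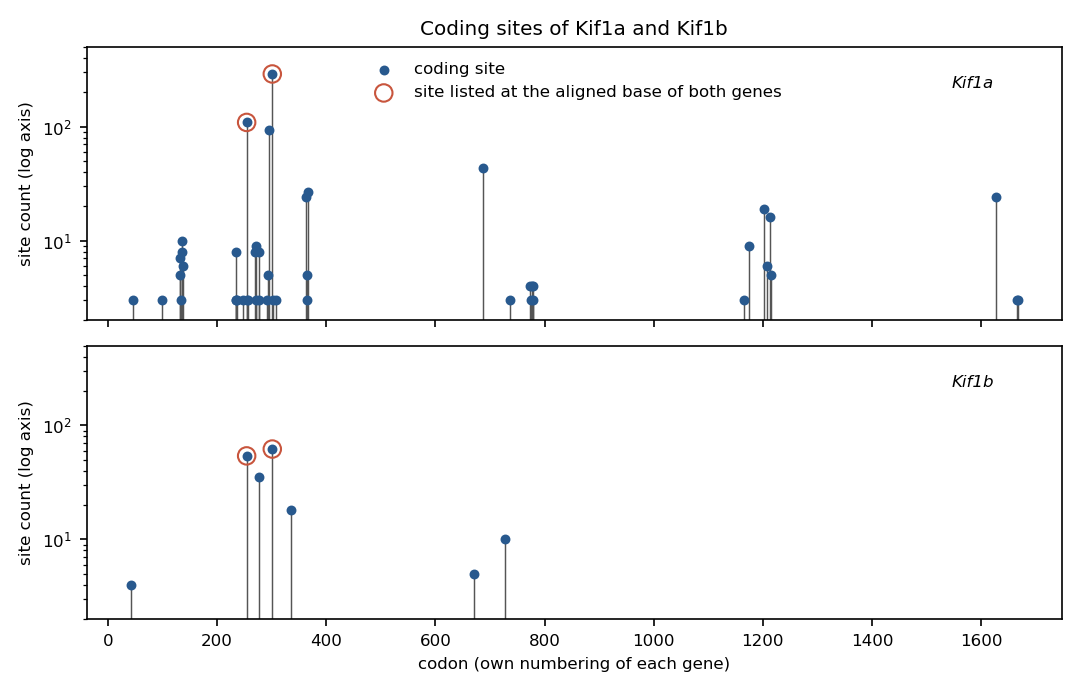
Site count on a log axis against codon number for the coding sites of Kif1a (top) and Kif1b (bottom) on their longest coding transcripts; red rings mark sites listed at the aligned base of both genes. The ringed sites at codons 254 and 301 have counts of 109 and 290 in Kif1a and of 54 and 62 in Kif1b.

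Kif1a and Kif1b are paralogues, and their strongest coding sites fell at the same aligned bases. Their proteins aligned over 1678 codons with 73.9% identical residues, and at 87 aligned bases both genes had a RAC cytosine. Kif1a was listed at 13 of these and Kif1b at 3, and 2 were listed in both. The windows around the shared site at codon 254 are shown to let their bases be compared, with capitals as before, and those of codon 301 are given above.
Kif1a, minus strand, chr1:93073836-93073856, coding: aggcagtGAACGagccgactc
Kif1b, minus strand, chr4:149267234-149267254, coding: aggaagtGAACGggctgattc
At codon 254 the counts were 109 in Kif1a and 54 in Kif1b, and 17 of the 21 bases were identical. At codon 301 they were 290 and 62, again with 17 of 21 identical, and the context differed, AGACA in Kif1a and AAACT in Kif1b. Over 121 nt around the sites 92 and 85 bases were identical. These were the 2 highest coding counts of each gene. Whether reads of either gene were placed on the other was not tested.

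Of 18 pairs of related motor genes that were aligned, only 7 had both genes listed at an aligned RAC cytosine, and in the other 11 no such site could be shared. Of the 7, 2 shared a site and 5 did not. The other pair with a shared site was Kif1a with Kif5c, which align with 31.5% identical residues. The counts were 27 at codon 366 of Kif1a and 29 at codon 353 of Kif5c. Around that site only 11 of 21 and 39 of 121 bases were identical, so the alignment there is less certain. Kif5b and Kif5c, with 76.9% identical residues, were each listed at 2 of 51 such cytosines and shared none. The pairs were chosen after the sites were seen, and no chance level was computed.

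Some sites need care with their gene or region. A site of Kif3c with a count of 4 and a site of Mylk with a count of 3 lie in exons of a gene on the opposite strand. The strongest site of Klc1, with a count of 40, lies in the 3' UTR of an alternative transcript and not on the longest. Another 4 sites counted as 3' UTR, 2 in Myo5a and 1 each in Kif3a and Myh11, are CDS on the longest transcript, and those of Myo5a and Kif3a were counted as 3' UTR through transcripts annotated for nonsense-mediated decay. Of the 373 sites, 368 lie on the longest coding transcript of their gene.

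Motors work with adaptors and regulators, and a list of 40 genes, 4 of them kinesins whose symbols the rule does not take in (Kifc1, Kifc2, Kifc3 and Cenpe), was examined beside them. Of these, 23 had a site, or 57.5%, against 17.5% of all protein-coding genes. They had 204 sites in all and a median of 4 per gene, against 2 per listed symbol. The list was chosen by hand with earlier results of these data known, so these differences cannot be read as a result about adaptors. Clstn1, calsyntenin 1, which links cargo to kinesin light chains, had 69 sites, more than any motor gene. Pafah1b1, which encodes the dynein regulator LIS1, had 31, and its partners Nde1 and Ndel1 had none. Kifc2, a minus-end kinesin of neurons, had 16, and Kifap3, which links kinesin-2 to cargo, had 12. Of the mitochondrial set, Trak2 had 4 sites and Trak1 had 1, while Rhot1 and Rhot2, which encode the Miro anchors, had none. The CDS held 39.7% of the sites of this list and the 3' UTR 55.4%, against 26.1% and 61.9% of all sites. All sites include 9.75% in noncoding exons, and on the longest coding transcript the CDS held 33.6% of them. Clstn1 alone gave 69 of the 204 sites, 25 in the CDS and 44 in the 3' UTR. Without the 4 kinesins the shares were 43.1% and 51.6%.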

How the data were processed

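The submitters' processing notes name STAR 2.7.5 and the build mm10, and the series text names the Bullseye pipeline for the sites of C-to-U conversion. The authors deposited for each site a position, strand, gene symbol and whole-number count, and the table has no header. The counts were used as deposited, with no normalization. Neither the site filters nor any use of APOBEC1-YTHmut cells is stated in the labels or the series text.

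Sites were placed on GENCODE M21 by symbol and strand, with 3' UTR ahead of CDS, then 5' UTR, then other exons and last introns where transcripts differed. All 373 motor sites matched a gene and fell on a C. The longest protein-coding transcript gave stop distances, exons, junctions and codons. The coordinate steps were checked on 3000 simulated sites drawn on longest coding transcripts, with the gene given. Region, stop distance and context on that transcript were recovered for 100%. This check did not cover the matching by symbol and strand or the region order among transcripts. Proteins translated from the coding sequences were aligned globally (BLOSUM62, gap opening 11, extension 1, end gaps 0.5). Tools were Python 3.11.15, pandas 2.3.3, SciPy 1.17.1, Biopython 1.88 and matplotlib 3.10.9. No column of per-sample values was present.

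The genes and lists were chosen with earlier results of these data known. Genes were named if among the 20 with most sites, if they held one of the 10 highest counts, if they led their role group or if they were no motor subunit; others are named to account for every member of a group. The text also names a few related genes from the list of adaptors. Alternatives changed the count minimum, merged near sites, changed the region order or transcript, kept 1 site per gene, or left out Kif1a or Mylk.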

Additional observations from a re-analysis of the deposited data

How the results depend on the processing

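Of 25 alternatives, 16 left a share inside the interval of its main value, or a count or median within 1.5 times of it, and 9 did not. With counts of 4 or more, 224 sites remained and the median was 3 sites per gene. DRACH then covered 66.1% of sites in place of 49.6%, against 72.1% of all sites at that minimum. The minimum removed every motor site outside RAC, since all 78 had a count of 3. Among motor RAC sites of any count DRACH covered 62.7%. Without Kif1a the 3' UTR share was 58.8% and the CDS share 39.9%. Within 200 nt of the stop codon lay 10.3% of sites, against 18.03% of all sites. With 1 site per gene 30.6% lay within 400 nt, against 32.79% of all sites at that setting. That motor share rests on 36 sites and its interval holds the value of all sites, so the lower share near stop codons was not seen there. RAC in place of DRACH gave 79.1%. DRACH with 1 site per gene gave 64.1%, against 68.94% of all sites at that setting, a value inside the motor interval. The alternatives for the CDS share, and the values without Kif1a for junctions and offered cytosines, were chosen after seeing the data. No paired analysis was possible because no column holds values of a single sample. The unknown depth, the unknown meaning of the count and the absence of expression limit every comparison between genes.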
